A study of Mus musculus with 4 samples.

Results

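Cytochrome P450 genes were examined in AML12 cells, an immortalised hepatocyte line derived from mouse liver. The members were the protein-coding rows of the deposited gene table whose symbol is Cyp followed by a family number, a subfamily letter and a gene number. The rule found 69 of the 31828 genes in the table. Of these, 52 belong to families 1 to 4 (xenobiotic and fatty acid oxidation), 9 to families 7, 8, 11, 17, 27 and 39 (sterols and steroids), 3 to family 26 (retinoids) and 5 to families 19, 20, 21, 24 and 46. The 4 libraries are 2 of cells on the flat surface of a dish (2D) and 2 of cells inside Matrigel (3D), a gel made from basement membrane proteins. All came from the same line, grown for 48 h before replating, and shared a medium with 10% serum, insulin, transferrin, selenite and dexamethasone at 40 ng/mL. Dexamethasone is a glucocorticoid, and a drug of this class can itself change P450 genes. All cells were treated with 1 mM hydroxyurea, which blocks DNA replication, for 24 h in 2D and 36 h in 3D, so the effect of culture and that of treatment time cannot be told apart.

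Cytochrome P450 enzymes carry a haem group and insert oxygen into small lipophilic molecules. Most sit in the endoplasmic reticulum and take electrons from P450 reductase (Por), some with the help of cytochrome b5, while a few sit in mitochondria and take them from ferredoxin (Fdx1). In the liver they oxidise drugs and toxins, hydroxylate fatty acids and eicosanoids, and turn cholesterol into bile acids. Many are switched on by ligand-activated receptors such as the aryl hydrocarbon receptor (Ahr), and hepatocyte factors such as Hnf4a set their basal level.

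Values are TPM, a relative transcript abundance that allows for transcript length and adds up to the same total in each library. Sequencing depth is therefore unknown, and only relative levels can be compared. Between 13891 and 14256 genes reached 1 TPM per library, and mitochondrial genes took 5.37% to 6.78% of the TPM. Of 12 hepatocyte markers, 10 were in the table, and their summed TPM was 108 and 109 in 2D and 374 and 352 in 3D. Most of it came from Hnf4a, which is counted again among the regulators below, and Apob, and in 3D also from Ttr. Afp was at a mean of 7.44 TPM in 2D and 7.75 TPM in 3D (limma adjusted p = 0.682). Alb rose from 0.819 and 1.20 TPM in the 2D libraries to 12.7 and 10.0 TPM in the 3D libraries, while the defining markers Serpina1a, Serpina1b, Fgb and Ahsg stayed under 0.3 TPM in every library. The 6 cholangiocyte markers summed to 2402 and 2294 TPM in 2D and to 2269 and 2357 TPM in 3D, a like sum in which Spp1 (mean 152 to 775 TPM) and Sox9 rose, Krt7 (492 to 313 TPM) and Krt19 (1687 to 1200 TPM) fell, and Epcam was listed at 0 in all but 1 library. The 6 stellate and fibroblast markers summed to 35.0 and 37.6 TPM in 2D and to 19.8 and 18.7 TPM in 3D, nearly all of it from Des, with Col3a1 near 0. The 6 macrophage markers summed to 20.9 and 20.3 TPM in 2D and to 28.3 and 24.5 TPM in 3D, nearly all of it from Cd68. Adgre1 was listed at 0 in all but 1 library, while Marco (mean 0.183 and 0.935 TPM in 2D and 3D), Csf1r (0.154 and 0.475 TPM) and Ptprc (0.148 and 0.288 TPM) had both 3D libraries above both 2D libraries and were not tested. The 6 endothelial markers summed to 1.97 and 2.61 TPM in 2D and to 6.82 and 7.18 TPM in 3D. Vwf rose from a mean of 1.085 to 5.115 TPM (limma adjusted p = 0.0008). The untested Stab2 (0.0794 and 0.577 TPM) and Tek (0.256 and 0.527 TPM) did not overlap between cultures. The untested Kdr had a lower mean in 3D (0.123 and 0.0521 TPM), with overlap, and Pecam1 and Cdh5 stayed under 0.7 TPM. Of all tested genes, 77.5% did not overlap between cultures. That share was not counted for untested genes, so it is no background for the untested markers. The part of these markers in the results below was not tested. In bulk RNA, fewer cells of a type and less RNA per cell cannot be told apart.

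The P450 genes of AML12 cells were led by a few members. They summed to 353 and 364 TPM in 2D and to 413 and 405 TPM in 3D. Between 20 and 25 of the 69 genes reached 1 TPM in any 1 library, and between 10 and 19 were listed at 0. The 4 highest genes of each library held 60.25% to 63.38% of the sum. In 2D the highest was Cyp4f17, with 27.7% and 28.2% of the sum, and in 3D it was Cyp3a13, with 27.2% and 28.6%. In 2D the order was Cyp4f17, Cyp3a13, Cyp4f16 and Cyp4f13, and the ranges of neighbours in that order did not overlap. In 3D the order was Cyp3a13, Cyp4f17 and Cyp4f16, again without overlap, while Cyp4f13 (31.1 and 30.5 TPM) and Cyp39a1 (30.8 and 31.2 TPM) could not be ordered.

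**Figure D1:**
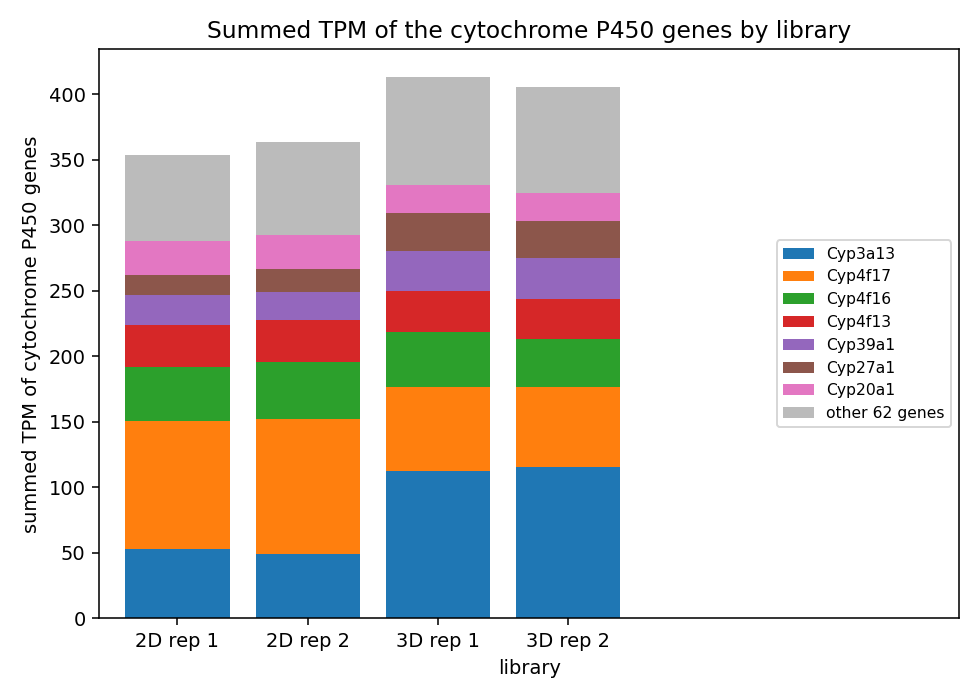
Summed TPM of the 69 cytochrome P450 genes in each of the 4 libraries, as stacked bars with the 7 highest genes in colour and the other 62 genes in grey. The Cyp3a13 segment is larger in both 3D libraries and the Cyp4f17 segment in both 2D libraries, and the totals are 353 and 364 in 2D and 413 and 405 in 3D.

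Of the 69 members, 22 had a mean of at least 1 TPM over the 4 libraries and were tested. The test was limma, a linear model with variances shared across genes, run on log2(TPM + 1) for all 14116 genes above that mean, and a gene was called at an adjusted p under 0.05. Among the 22 tested members, 8 rose in 3D, 4 fell and 10 did not pass. As shares of the tested members these are 54.5% called, 36.4% higher and 18.2% lower, beside 50.5%, 23.4% and 27.1% of all tested genes, and no test of these shares was made. The median log2 fold change of the tested members was -0.03, beside -0.04 over all tested genes, and that of all 69 members with no filter was 0.02, beside -0.01. The 2 cultures did not overlap for 18 of the 22 tested members (81.8%), beside 77.5% of all tested genes. An absolute log2 fold change over 1 was reached by Cyp1a1, Cyp2c70, Cyp3a13 and Cyp2d22 (higher) and by Cyp2u1 (lower), which is 22.7% of the tested members, beside 8.2% of all tested genes. Nothing in the labels says that the 2 libraries of a culture came from separate cultures, so the p-values measure only the spread between these libraries. Fold changes on the log2(TPM + 1) scale understate the change of low genes, and Cyp1a1 and Cyp2c70, which passed the filter only through the 3D culture, had to differ, so the counts and shares that hold them support nothing.

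**Figure D2:**
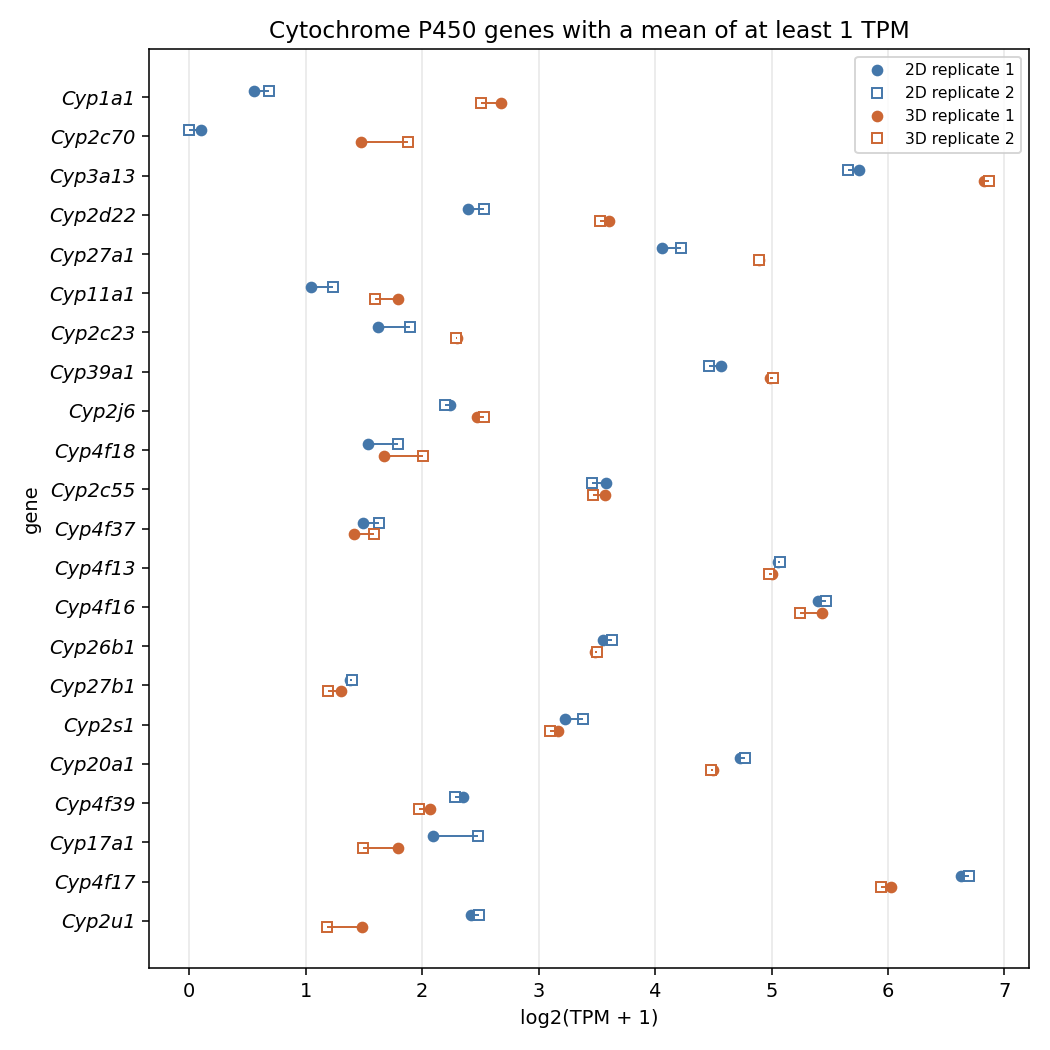
Level of the 22 tested cytochrome P450 genes on the log2(TPM + 1) scale in the 2D libraries (blue) and the 3D libraries (orange), with 1 symbol per library and genes ordered by fold change. Cyp3a13 and Cyp4f17 lie farthest to the right, Cyp1a1 and Cyp2c70 are near 0 in 2D, and the 2 cultures overlap for Cyp4f18, Cyp2c55, Cyp4f37 and Cyp4f16.

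Cyp1a1, the enzyme that oxidises polycyclic aromatic hydrocarbons and the best known target of Ahr, rose. It was at 0.467 and 0.611 TPM in the 2D libraries and at 5.40 and 4.68 TPM in the 3D libraries, so the mean TPM was 9.36 times higher in 3D, with no overlap. The log2 fold change was 1.97 ± 0.13 (SE, n = 2 per culture, limma adjusted p = 0.000767). This was the largest among the tested members with a pseudocount of 1, while with 0.1 Cyp2c70 was above it (4.12 and 3.01) and with 5 Cyp3a13 was (1.09 and 0.86). The mean of Cyp1a1 reached 1 TPM in 3D only, so the filter let it in through the culture where it is high, and with no filter the limma adjusted p was 0.00245. The gene lies at chr9:57687928-57703824 on the plus strand (GRCm38), next to Cyp1a2, with which it shares 3.43% of its 50-base stretches. Cyp1a2, a liver enzyme of aromatic amine and caffeine oxidation, stayed low, at 0.142 and 0.0309 TPM in 2D and 0.431 and 0.278 TPM in 3D, and was not tested. Cyp1b1, the third member of the family, had 0.629 and 0.813 TPM in 2D and 0.445 and 0.471 TPM in 3D.

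Promoters of 53 of the 69 members, and of 16 of the 22 tested ones, were matched in RefSeq (GRCm38.p6). The 250 bases upstream of the start are given here for Cyp1a1, the member with the largest log2 fold change at a pseudocount of 1, for Cyp2c70 and Cyp2c55, which share a gene cluster, and for Cyp20a1. They read from 5′ to 3′ in the direction of the gene. Capitals mark, on either strand, the Ahr core motif GCGTG, the Hnf4 motif CAAAGTCCA, the TATA box letters TATAAA and the nuclear receptor half-site AGGTCA.
Cyp1a1 (chr9:57697363-57697612, plus strand): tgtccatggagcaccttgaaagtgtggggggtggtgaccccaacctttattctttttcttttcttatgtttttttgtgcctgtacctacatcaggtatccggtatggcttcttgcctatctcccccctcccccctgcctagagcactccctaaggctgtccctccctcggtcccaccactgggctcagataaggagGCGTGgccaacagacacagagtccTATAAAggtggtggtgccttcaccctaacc
Cyp2c70 (chr19:40187287-40187536, minus strand): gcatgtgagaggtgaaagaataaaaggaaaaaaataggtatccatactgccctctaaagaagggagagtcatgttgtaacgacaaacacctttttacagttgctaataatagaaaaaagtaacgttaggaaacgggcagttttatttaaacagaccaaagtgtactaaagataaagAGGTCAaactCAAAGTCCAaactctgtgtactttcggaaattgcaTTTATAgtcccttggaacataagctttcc
Cyp2c55 (chr19:39006769-39007018, plus strand): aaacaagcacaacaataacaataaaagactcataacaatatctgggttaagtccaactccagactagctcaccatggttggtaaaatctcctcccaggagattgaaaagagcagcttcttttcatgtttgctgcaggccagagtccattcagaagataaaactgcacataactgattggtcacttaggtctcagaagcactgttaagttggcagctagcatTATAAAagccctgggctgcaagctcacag
Cyp20a1 (chr1:60343050-60343299, plus strand): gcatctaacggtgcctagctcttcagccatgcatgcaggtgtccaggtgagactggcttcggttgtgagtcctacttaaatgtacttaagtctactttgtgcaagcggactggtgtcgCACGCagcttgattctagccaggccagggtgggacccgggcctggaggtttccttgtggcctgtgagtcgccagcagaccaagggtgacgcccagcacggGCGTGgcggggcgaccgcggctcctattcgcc
No 2 of these motifs overlap in the stretches shown. The Cyp1a1 stretch is that of the main transcript, whose start lies 9685 bases inside the gene of the table. It holds GCGTG from 54 bases upstream of the start and TATAAA from 30 bases upstream. GCGTG was present in 28.2% of all 27025 promoters of this length, in 11 of 53 member promoters and in 4 of 16 tested ones, those of Cyp1a1, Cyp20a1, Cyp4f16 and Cyp4f39, of which the last has a RefSeq start 15739 bases away from the gene start of the table. CAAAGTCCA was present in 0.381% of all promoters and in 7 of 53 member promoters, of which Cyp2c70 was the only tested one. TATAAA was in 13.0% of all promoters and in 22 of 53 member promoters, and AGGTCA in 13.8% and in 9 of 53. The Cyp2c70 stretch holds AGGTCA, CAAAGTCCA and TATAAA, the latter on the opposite strand, at 74, 64 and 29 bases upstream, and that of Cyp2c55 holds TATAAA at 29 bases. The other matched members called higher, Cyp27a1, Cyp3a13 and Cyp11a1, are not shown, and their stretches hold none of these motifs. For Cyp11a1 the RefSeq start lies 8387 bases away from the gene start of the table. A match is a description of letters and not a measured site.

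In family 2, Cyp2c70, Cyp2d22 and Cyp2c23 rose, Cyp2u1 fell, and Cyp2j6, Cyp2s1 and Cyp2c55 did not pass. Cyp2c70, which makes the muricholic acids of mouse bile, was at 0.0734 TPM in 1 2D library and listed at 0 in the other, and at 1.78 and 2.67 TPM in the 3D libraries. Its log2 fold change was 1.62 ± 0.19 (SE, n = 2 per culture, limma adjusted p = 0.00314). It too passed the filter only through 3D and had to differ there, and with no filter the limma adjusted p was 0.0078. Cyp2c55, an arachidonic acid hydroxylase at the other end of the same gene cluster, was at 10.9 and 9.99 TPM in 2D and at 10.9 and 10.1 TPM in 3D. The 95% interval of its log2 fold change ran from -0.23 to 0.23 (limma adjusted p = 0.996), with a sign that depended on the scaling. Both lie in a cluster of 7 members at chr19:39007019-40187333, of which the other 5 stayed under 0.4 TPM in every library. Cyp2d22, the mouse gene often set beside human CYP2D6, was at 4.24 and 4.77 TPM in 2D and at 11.1 and 10.5 TPM in 3D (log2 fold change 1.10 ± 0.10, SE, n = 2 per culture, limma adjusted p = 0.00141). It was the only tested one of the 7 Cyp2d members at chr15:82370527-82794294, and its levels in 3D were 2.40 times those in 2D.

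Cyp2c23, an arachidonic acid epoxygenase outside that Cyp2c cluster (chr19:44005022-44029208), was at 2.07 and 2.71 TPM in 2D and at 3.92 and 3.88 TPM in 3D. Its log2 fold change was 0.54 ± 0.14 (SE, n = 2 per culture, limma adjusted p = 0.029). The call was lost without 2D replicate 1, without 3D replicate 1 and without 3D replicate 2, with limma adjusted p-values of 0.0828, 0.108 and 0.103. Cyp2u1, a fatty acid hydroxylase at chr3:131288441-131303227, was at 4.35 and 4.61 TPM in 2D and at 1.801 and 1.26 TPM in 3D. It fell by 1.12 ± 0.15 on the log2 scale (SE, n = 2 per culture, limma adjusted p = 0.00426), the largest fall among the tested members, and no 3D library reached the 2D range. Cyp2j6, of a subfamily of epoxygenases, was at 3.72 and 3.60 TPM in 2D and at 4.54 and 4.77 TPM in 3D. The cultures did not overlap, but with a log2 fold change of 0.28 (95% interval 0.03 to 0.53) it missed the threshold (limma adjusted p = 0.0676). Cyp2s1 was at 8.33 and 9.39 TPM in 2D and at 7.99 and 7.54 TPM in 3D (95% interval of the log2 fold change -0.42 to 0.08, limma adjusted p = 0.204). It was the only tested gene among 10 members of the Cyp2a, Cyp2b, Cyp2f, Cyp2g and Cyp2s subfamilies at chr7:25802475-27133660.

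Cyp3a13 had the largest gain in TPM of any member. Enzymes of the Cyp3a subfamily oxidise many drugs and steroids. Cyp3a13 (chr5:137892932-137921619, minus strand) was at 52.9 and 49.3 TPM in the 2D libraries and at 112 and 116 TPM in the 3D libraries. The mean TPM was 2.23 times higher in 3D, and the cultures lay far apart (log2 fold change 1.14 ± 0.05, SE, n = 2 per culture, limma adjusted p = 0.000434). No 50-base stretch of its transcripts was shared with another gene, although it overlaps the processed pseudogene Gm15502 by 208 bases on the same strand. The other Cyp3a members in the table were Cyp3a11, the major Cyp3a gene of mouse liver, Cyp3a16 and Cyp3a57, and none of them reached 0.3 TPM in any library. Cyp3a11 was listed at 0 in all but 1 library.

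In family 4, Cyp4f17 fell and the 5 other tested members did not pass. Cyp4f enzymes hydroxylate leukotrienes and long fatty acids at the end of the chain. Cyp4f17 (chr17:32506462-32528894) was at 97.8 and 103 TPM in the 2D libraries and at 64.0 and 60.5 TPM in the 3D libraries. It fell by 0.68 ± 0.05 on the log2 scale (SE, n = 2 per culture, limma adjusted p = 0.00119), with no overlap. It belongs to a cluster of 8 members at chr17:32468462-32947402, of which 5 were tested. Cyp4f16 was at 41.1 and 43.3 TPM in 2D and at 42.1 and 36.8 TPM in 3D, and Cyp4f13 at 32.2 and 32.6 TPM in 2D and at 31.1 and 30.5 TPM in 3D. Their log2 fold changes had 95% intervals from -0.31 to 0.12 (limma adjusted p = 0.38) and from -0.21 to 0.07 (limma adjusted p = 0.314), which leave out a fall of the size of that of Cyp4f17. The difference between the genes was not tested.

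Cyp4f39, which hydroxylates the very long fatty acids of the skin barrier, was at 4.09 and 3.88 TPM in 2D and at 3.19 and 2.93 TPM in 3D. It missed the threshold (log2 fold change -0.30, limma adjusted p = 0.0719) although the cultures did not overlap. Cyp4f37 was at 1.81 and 2.10 TPM in 2D and at 1.66 and 2.00 TPM in 3D, with a sign that depended on the scaling (limma adjusted p = 0.723). Cyp4f16 and Cyp4f37 share 17.4% and 19.7% of their 50-base stretches with other genes, so how their reads were split is uncertain. Cyp4f18, which inactivates leukotriene B4 in neutrophils and lies outside the cluster, was at 1.90 and 2.45 TPM in 2D and at 2.18 and 3.02 TPM in 3D (95% interval of the log2 fold change -0.29 to 0.64, limma adjusted p = 0.443). It overlaps Zfp961 on the other strand over 5311 bases. The summed TPM of family 4 was 181 and 189 in 2D and 147 and 138 in 3D, and that of family 3 was 53.2 and 49.6 in 2D and 113 and 116 in 3D.

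**Figure D3:**
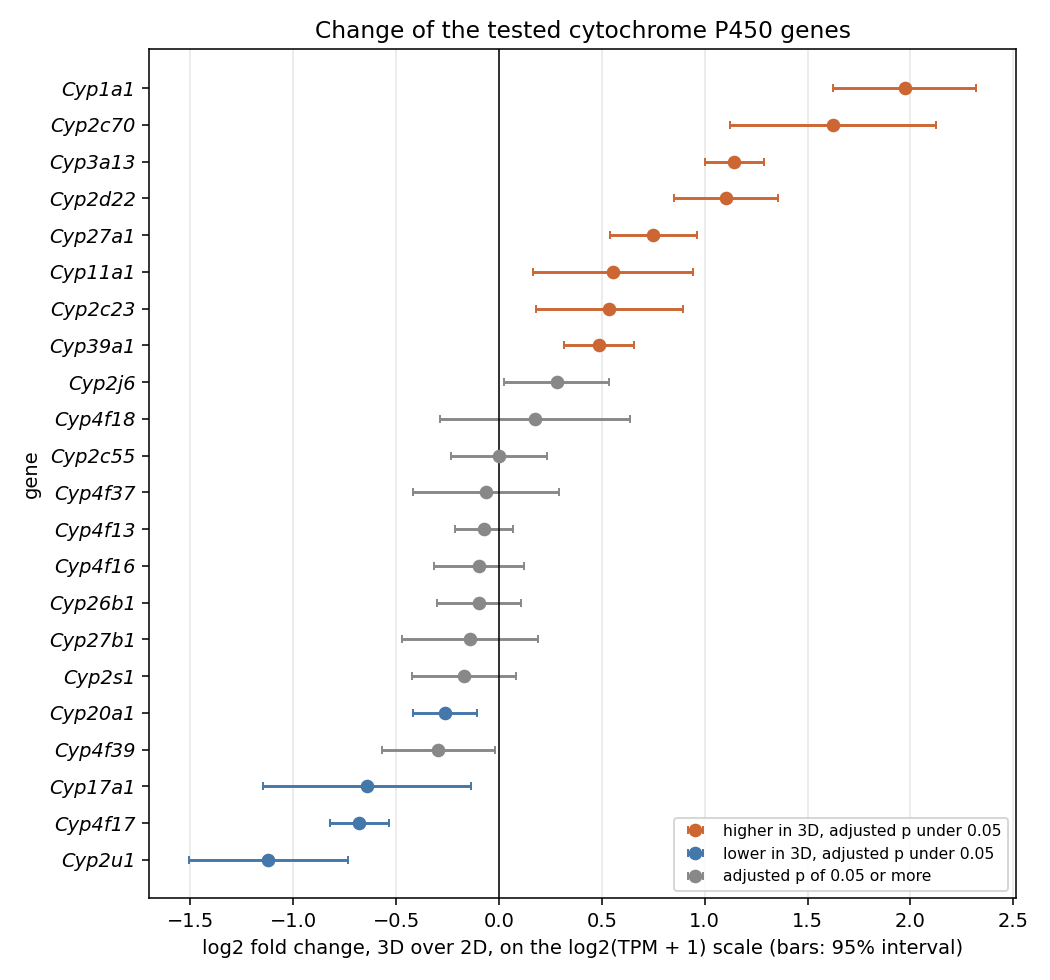
Log2 fold change of 3D over 2D on the log2(TPM + 1) scale for the 22 tested cytochrome P450 genes, with 95% intervals from limma and colour by call. The 8 members called higher run from Cyp1a1 (1.97) to Cyp39a1 (0.49), the 4 called lower end with Cyp2u1 (-1.12), and 10 have an adjusted p of 0.05 or more, among them Cyp2c55 and Cyp4f37, whose sign depended on the scaling.

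Among the sterol and steroid families, Cyp27a1, Cyp39a1 and Cyp11a1 rose, Cyp17a1 fell and Cyp27b1 did not pass, of 9 members with 5 tested. These families summed to 44.3 and 46.4 TPM in 2D and to 66.0 and 65.2 TPM in 3D. Cyp27a1, the mitochondrial sterol hydroxylase that opens the acidic route to bile acids (chr1:74713574-74737892), was at 15.7 and 17.7 TPM in 2D and at 28.7 and 28.7 TPM in 3D (log2 fold change 0.75 ± 0.08, SE, n = 2 per culture, limma adjusted p = 0.00244). Cyp39a1, which hydroxylates an oxysterol on the way to bile acids (chr17:43667425-43751431), was at 22.7 and 21.1 TPM in 2D and at 30.8 and 31.2 TPM in 3D (log2 fold change 0.49 ± 0.07, SE, n = 2 per culture, limma adjusted p = 0.00458). In both genes every 3D library was above every 2D library. Cyp7a1, the rate-limiting enzyme of the classical route to bile acids, and Cyp8b1, which makes cholic acid, stayed under 0.05 TPM in every library and were not tested.

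Cyp11a1, which cleaves the side chain of cholesterol at the start of steroid synthesis, was at 1.07 and 1.35 TPM in 2D and at 2.47 and 2.02 TPM in 3D (log2 fold change 0.55 ± 0.15, SE, n = 2 per culture, limma adjusted p = 0.0338). It lies at chr9:58006411-58027023 and overlaps Gm17322 by 1041 bases on the same strand. The call was lost without any 1 of the 4 libraries, with limma adjusted p-values from 0.0583 to 0.142. Cyp17a1, the next enzyme toward androgens (chr19:46667165-46672974), was at 3.27 and 4.59 TPM in 2D and at 2.47 and 1.82 TPM in 3D. It fell by 0.64 ± 0.19 on the log2 scale (SE, n = 2 per culture, limma adjusted p = 0.0462). That call was lost without 2D replicate 2, 3D replicate 1 or 3D replicate 2, with limma adjusted p-values of 0.151, 0.0665 and 0.167. Cyp27b1, which activates vitamin D, was at 1.61 and 1.63 TPM in 2D and at 1.47 and 1.28 TPM in 3D (95% interval of the log2 fold change -0.47 to 0.19, limma adjusted p = 0.391).

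Cyp26b1, which clears retinoic acid, did not pass the test. It was at 10.7 and 11.4 TPM in the 2D libraries and at 10.2 and 10.3 TPM in the 3D libraries (95% interval of the log2 fold change -0.30 to 0.10, limma adjusted p = 0.335). Cyp26a1, the retinoic acid hydroxylase that is prominent in liver, was at 0.263 and 0.628 TPM in 2D and at 0.405 and 0.530 TPM in 3D, and Cyp26c1 stayed under 0.2 TPM. Cyp20a1, an orphan enzyme without a settled substrate (chr1:60343323-60388060), was at 25.6 and 26.3 TPM in 2D and at 21.6 and 21.3 TPM in 3D. It fell by 0.26 ± 0.06 on the log2 scale (SE, n = 2 per culture, limma adjusted p = 0.0208). The call was lost without 2D replicate 2, 3D replicate 1 or 3D replicate 2, with limma adjusted p-values of 0.0677, 0.0866 and 0.0992.

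The other 47 members had a mean under 1 TPM. Of these, 34 stayed under 0.5 TPM in every library, 20 stayed under 0.1 TPM, and 11 were listed at 0 in both 2D libraries. Major P450 genes of adult mouse liver were among them. Cyp2e1, which oxidises ethanol, was listed at 0 in 3 libraries and was at 0.331 TPM in 3D replicate 2, and Cyp4a10 and Cyp4a14, fatty acid hydroxylases under control of Ppara, did not pass 0.06 TPM. The remaining 13 reached 0.5 TPM in at least 1 library. Cyp2d26 was at 0.334 and 0.0352 TPM in 2D and at 1.26 and 1.70 TPM in 3D, and Cyp4b1, a fatty acid and xenobiotic oxidase, at 0.532 and 0.439 TPM in 2D and at 1.54 and 1.45 TPM in 3D. Cyp2a5, a coumarin hydroxylase, was at 0.0313 and 0.149 TPM in 2D and at 0.753 and 0.763 TPM in 3D, and Cyp21a1, the adrenal steroid hydroxylase, at 0.199 and 0.227 TPM in 2D and at 0.801 and 0.823 TPM in 3D. In these 4 genes both 3D libraries were above both 2D libraries, while in Cyp1b1 and Cyp2b10 both were below. The share of all untested genes without overlap was not counted.

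When all 31828 genes were tested with no filter on low values, 4 of the low genes were called higher. Their limma adjusted p-values were 0.0252 (Cyp2d26), 0.0193 (Cyp4b1), 0.0209 (Cyp2a5) and 0.0283 (Cyp21a1). In that fit 10 of the 69 members and 2783 of all 31828 genes were called higher. Cyp2a5 and Cyp21a1 share 37.0% and 21.3% of their 50-base stretches with other genes, mainly Cyp2a4 and the pseudogene Cyp21a2-ps, so their reads may have been split. Cyp19a1, the aromatase that makes oestrogens, was at 0.156 and 0.293 TPM in 2D and at 0.648 and 0.654 TPM in 3D. Cyp46a1, the sterol hydroxylase of brain, was at 0.496 and 0.592 TPM in 2D and at 1.21 and 0.442 TPM in 3D, so its 3D libraries stood on both sides of the 2D range. Cyp2b10, a target of the receptor Nr1i3, was at 0.531 and 0.655 TPM in 2D and at 0.449 and 0.287 TPM in 3D. The last members in this range were Cyp2d10, Cyp4f40, Cyp4f14 and Cyp2f2, which lay between 0.2 and 1.02 TPM.

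**Figure D4:**
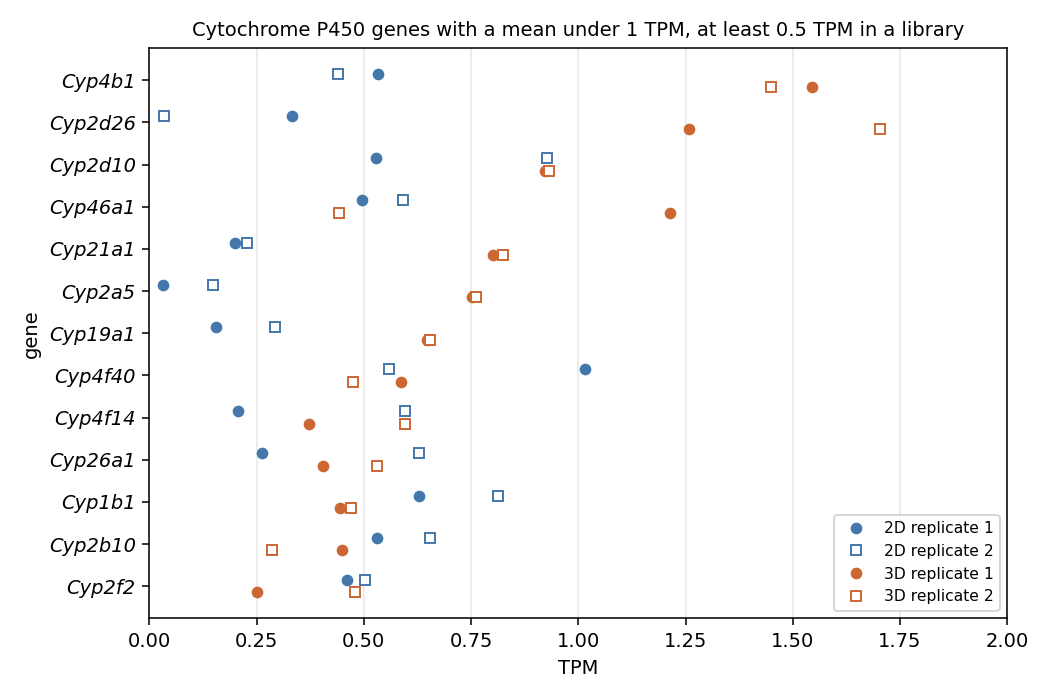
TPM of the 13 untested cytochrome P450 genes that reached 0.5 TPM in at least 1 library, with 1 symbol per library and genes ordered by their 3D mean. Cyp4b1, Cyp2d26, Cyp21a1, Cyp2a5 and Cyp19a1 have both 3D libraries (orange) to the right of both 2D libraries (blue). Cyp1b1 and Cyp2b10 have both 3D libraries to the left. The share of all untested genes without overlap was not counted.

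Of 8 electron donors and partners of the P450 enzymes, all tested, 2 rose, 4 fell and 2 did not pass, beside 23.4% higher and 27.1% lower over all tested genes. Por was at 402 and 407 TPM in 2D and at 343 and 338 TPM in 3D, and it fell by 0.25 ± 0.03 on the log2 scale (SE, n = 2 per culture, limma adjusted p = 0.00478). Cyb5a, the cytochrome b5 of the endoplasmic reticulum, was at 149 and 147 TPM in 2D and at 251 and 350 TPM in 3D (log2 fold change 0.99 ± 0.16, limma adjusted p = 0.00794), and Cyb5b, its mitochondrial relative, rose by 0.54. Every 3D library was below the 2D range for Por and above it for Cyb5a. The haem-binding P450 partners Pgrmc1 and Pgrmc2 fell by 0.62 and 0.17, and Fdx1 fell by 0.35. Without 3D replicate 2 the calls of Por, Fdx1 and Pgrmc2 were lost, with log2 fold changes of -0.24, -0.36 and -0.15. Fdx1 was also lost without 3D replicate 1 (limma adjusted p = 0.103), Cyb5a without either 2D library (limma adjusted p = 0.108 and 0.107) and Pgrmc2 without any 1 library (lowest limma adjusted p = 0.0874).

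Of 10 tested genes of haem synthesis and breakdown, 3 rose, 2 fell and 5 did not pass, so the called share was that of all tested genes (50.5%). Alas1, the rate-limiting enzyme of haem synthesis in liver, was at 27.5 and 27.3 TPM in 2D and at 33.7 and 37.4 TPM in 3D (log2 fold change 0.36 ± 0.07, SE, n = 2 per culture, limma adjusted p = 0.0138). The later enzymes Alad and Cpox fell by 0.57 and 0.75, and the haem oxygenases Hmox1 and Hmox2, which degrade haem, rose by 0.55 and 0.42. Without 3D replicate 2 the calls of Alas1 and Hmox2 were lost, with log2 fold changes of 0.29 and 0.36.

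Among 17 regulators of P450 genes, 12 were tested, of which 8 rose, 1 fell and 3 did not pass, where 23.4% of all tested genes rose and 27.1% fell. Hnf4a was at 56.7 and 57.6 TPM in 2D and at 164 and 156 TPM in 3D, a log2 fold change of 1.47 ± 0.05 (SE, n = 2 per culture, limma adjusted p = 0.000241). Ahr was at 4.13 and 3.91 TPM in 2D and at 10.5 and 10.8 TPM in 3D, a log2 fold change of 1.22 ± 0.09 (SE, n = 2 per culture, limma adjusted p = 0.000847). The partner Rxra rose by 0.97, the oxysterol receptor Nr1h3 by 0.88, the fatty acid receptor Ppara by 0.86, Cebpa by 0.39, Rarg by 0.31 and Rara by 0.29, while the bile acid receptor Nr1h4 fell by 0.30. The xenobiotic receptors Nr1i2 and Nr1i3 stayed under 0.4 TPM in every library, and Nr0b2, Nr5a2 and Rarb under 0.5 TPM. The glucocorticoid receptor Nr3c1, the receptor of the dexamethasone in the medium, was at 95.6 and 95.5 TPM in 2D and at 125 and 97.0 TPM in 3D (limma adjusted p = 0.237). Arnt and Vdr, with log2 fold changes of 0.32 and 0.30, did not pass either (limma adjusted p = 0.0812 and 0.0605). Arnt passed with a replicate block (limma adjusted p = 0.0385). Vdr passed when libraries were centred or rescaled (limma adjusted p = 0.0485 and 0.0498). Cebpa was lost without 2D replicate 1, 3D replicate 1 or 3D replicate 2 (limma adjusted p = 0.0673, 0.0758 and 0.0998), and Rara without 2D replicate 1, 2D replicate 2 or 3D replicate 2 (limma adjusted p = 0.12, 0.0529 and 0.137).

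Of 5 Ahr pathway targets that are no P450 genes, 3 were tested and all 3 rose, beside 23.4% of all tested genes. Aldh3a1, an aldehyde dehydrogenase, was at 0.485 and 0.738 TPM in 2D and at 2.89 and 2.92 TPM in 3D, a log2 fold change of 1.28 ± 0.14 (SE, n = 2 per culture, limma adjusted p = 0.00263). It passed the filter only through 3D, where it is high, and had to differ, so the count of 3 supports nothing. With no filter its limma adjusted p was 0.00708. In that fit 2 of the 5 targets were called, beside 5977 of all 31828 genes. Nfe2l2, a regulator of the oxidative stress response, rose by 0.65 and Tiparp by 0.35. Tiparp was lost without 2D replicate 1, 3D replicate 1 or 3D replicate 2 (limma adjusted p = 0.0815, 0.0557 and 0.118). Ahrr, the repressor of the pathway and a well-known target, was between 0.126 and 0.183 TPM in all 4 libraries, and Nqo1 between 0.0266 and 0.209 TPM with both 3D libraries lower.

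In the retinoic acid pathway 7 of 9 genes were tested, 4 rose and 2 fell, against 23.4% and 27.1% of all tested genes. Dhrs3, which turns retinaldehyde back to retinol, was at 4.59 and 4.31 TPM in 2D and at 67.3 and 63.3 TPM in 3D, a log2 fold change of 3.60 ± 0.07 (SE, n = 2 per culture, limma adjusted p = 0.000173). The retinol transporter gene Stra6 rose from 9.74 and 12.2 TPM in the 2D libraries to 69.7 and 68.8 TPM in the 3D libraries. Aldh1a1, which makes retinoic acid, was at 381 and 378 TPM in 2D and at 1104 and 1113 TPM in 3D (log2 fold change 1.54, limma adjusted p = 0.000173). Whether their change differed from that of Cyp26b1 was not tested. Rdh10 rose by 0.25, Aldh1a3 fell by 1.01 and Crabp2 fell by 0.57. The latter 2 passed the filter only through 2D, where they are high, and had to differ, so the count of falls supports nothing. With no filter their limma adjusted p-values were 0.0123 and 0.0469. Rdh10 was lost without either 3D library (limma adjusted p = 0.0585 and 0.0678) and Crabp2 without any 1 library (limma adjusted p from 0.056 to 0.102).

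Of 11 genes of bile acid synthesis other than P450 genes, 6 were tested, 4 rose and 1 fell (23.4% and 27.1% over all tested genes). The peroxisomal side-chain enzymes Acox2, Scp2 and Hsd17b4 rose by 0.89, 0.53 and 0.42, Hsd3b7 rose by 0.45, and the thioesterase Acot8 fell by 0.54. The conjugating enzymes Slc27a5 and Baat stayed under 1 TPM in every library. Hsd3b7 was lost without 2D replicate 2, 3D replicate 1 or 3D replicate 2 (limma adjusted p = 0.0648, 0.0785 and 0.132). Of 8 partners in epoxide and eicosanoid metabolism, 6 were tested, 2 rose and 1 fell, a called share like the 50.5% of all tested genes. The microsomal epoxide hydrolase Ephx1 was at 270 and 252 TPM in 2D and at 461 and 448 TPM in 3D (log2 fold change 0.80 ± 0.05, SE, n = 2 per culture, limma adjusted p = 0.000643). The soluble epoxide hydrolase Ephx2 was between 127 and 130 TPM in all 4 libraries (95% interval of the log2 fold change -0.10 to 0.11). Ptgs1 rose by 0.65, and Ptges, the prostaglandin E synthase, fell by 1.18.

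**Figure D5:**
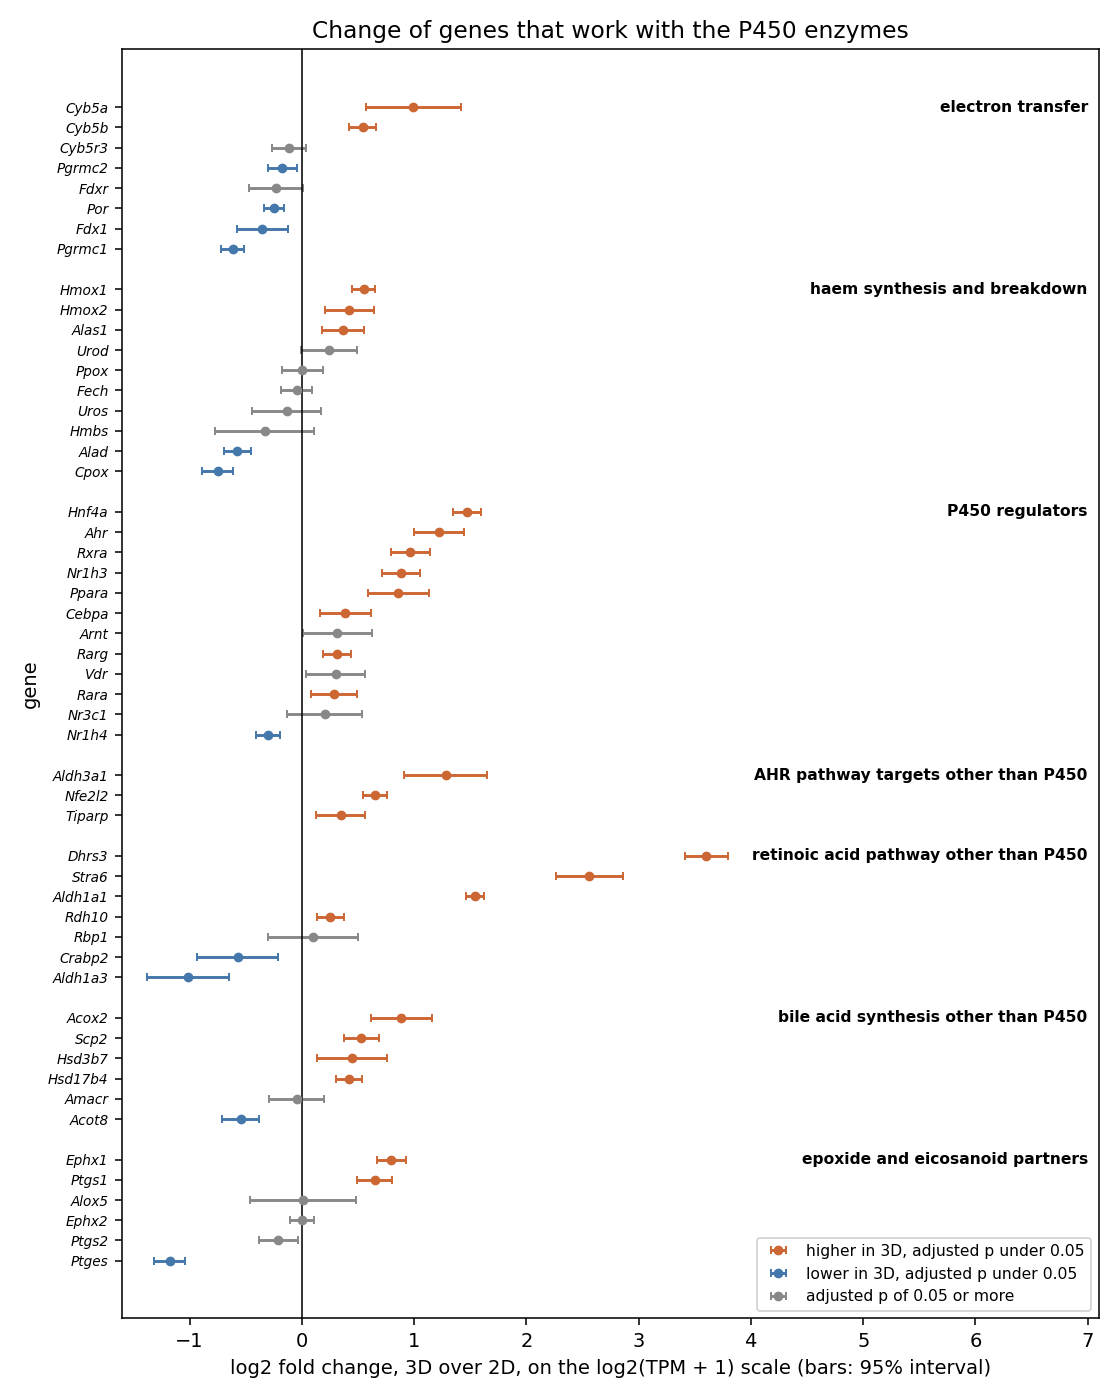
Log2 fold change of 3D over 2D on the log2(TPM + 1) scale for the tested genes of the 7 partner lists, with 95% intervals from limma and colour by call. Dhrs3 (3.60) and Stra6 lie farthest to the right, 8 of the 12 tested regulators are called higher, and the electron transfer and haem lists hold calls on both sides of 0, at shares to be read beside the 50.5% of all tested genes.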

How the data were processed

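Polyadenylated RNA of AML12 cells was sequenced from stranded libraries, 2 per culture. Per the submitters' processing notes, the tools were cutadapt 1.8.3, Trimmomatic 0.36, HISAT2 2.0.5 and StringTie 1.3.4, with the build GRCm38. The values used are the TPM per library deposited by the authors, without pooling. The table also holds the log2 fold change and p-value of the authors' own comparison of the cultures with DESeq2, which were not used. TPM keep no read counts, so a count test could not be run and no interval or detection limit from depth is given.

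The labels give the culture of each library. The test was limma 3.58.1 under R 4.3.3, applied to log2(TPM + 1) of the genes whose mean over the 4 libraries was 1 TPM or more (eBayes with trend and robust variance, two-sided, Benjamini-Hochberg over 14116 genes, calls at 0.05), with culture as the only factor. The members and gene lists were chosen with earlier results of these data known. Named genes are all members with a mean of at least 1 TPM, untested members reaching 0.5 TPM in a library, and any gene of the lists, while other members were named after their values were seen. Shared sequence was counted as 50-base stretches of GENCODE transcripts found in another gene. Members less than 500000 bases apart were taken as 1 cluster. In simulated data with 200 changed genes of 14116, the script found 87% of those changed 4-fold and 65% of those changed 2-fold, and 5% of 160 calls were false. In the data a far larger share was called (50.5% of the tested genes), so these rates need not hold for them. Tables and plots were made with Python 3.11.15, pandas 2.3.3 and matplotlib 3.10.9.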

Additional observations from a re-analysis of the deposited data

How the results depend on the processing

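Across the settings tried, Cyp1a1, Cyp2c70, Cyp3a13, Cyp2d22, Cyp27a1, Cyp39a1, Cyp2u1 and Cyp4f17 kept their call in every fit at an adjusted p under 0.05 in which they were tested. The 22 tested members gave 297 values, of which 290 kept their direction and 262 also their side of the threshold. The other filters, the replicate block, the constant prior variance and the stricter p threshold leave the fold change of a gene as it was. In those settings the direction could not turn, so the count of kept directions includes values that were fixed. With no filter, Cyp11a1, Cyp17a1, Cyp2c23 and Cyp20a1 were lost (limma adjusted p = 0.07, 0.0989, 0.0645 and 0.0509). Of the list genes, Tiparp, Rara, Hsd3b7, Fdx1, Pgrmc2 and Cyp51 were lost there (limma adjusted p = 0.0587, 0.0813, 0.0762, 0.0646, 0.0887 and 0.0643). The cause of the changes was not tested.

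With a mean TPM of at least 5, fewer genes are tested. Of 11 tested members, 4 were called higher and 2 lower, with a median log2 fold change of -0.0721. In that fit 6002 of 10915 genes were called, 2786 of them higher. With no filter 10 of 69 members were called higher and 2 lower, beside 5977 of 31828 genes called, 2783 of them higher. The median with no filter was 0.022, and 8 of the 12 called members were shared. An adjusted p under 0.01 left 2 members lower, 4223 genes in all, 3 of the haem list and 0 outside the name pattern. An absolute log2 fold change over 1 left 4 members higher, 1 lower, 1157 genes in all, 2 regulators, 1 Ahr target, 1 epoxide or eicosanoid partner, and 0 in the electron transfer, haem and bile acid lists and outside the name pattern. Leaving out 1 library, the lone library of its culture being taken to vary like the others, gave 6 to 7 members higher and 2 to 4 lower (2 without 2D replicate 2, 3D replicate 1 or 3D replicate 2), 4720 to 5954 genes in all, and a median from -0.0247 to 0.0032, with the positive one without 3D replicate 2. It gave 3 to 5 genes of the electron transfer list, 3 to 6 of the haem list, and 0 outside the name pattern.

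The labels do not say whether libraries with the same replicate number were made together. The correlation of same-numbered deviations over all tested genes was -0.05, which shows no shared shift across genes but cannot settle a pairing. With a replicate block 9 members were called, all 9 shared, with 2 lower, and 0 outside the name pattern. Cyp11a1, Cyp17a1 and Cyp20a1 were lost under the block (limma adjusted p = 0.0588, 0.0718 and 0.0545). A constant prior variance gave 0 outside the name pattern, lost Cyp17a1 (limma adjusted p = 0.0545) and called Cyp2j6 and Cyp4f39 (limma adjusted p = 0.025 and 0.0293). Rescaling after removal of mitochondrial genes and the 20 highest genes lost Cyp17a1 (limma adjusted p = 0.0507).

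The sign of Cyp2c55 turned when libraries were centred (0.0126) or rescaled (0.0239), and leaving out 1 library moved its log2 fold change between -0.0596 and 0.0584 (0.0497 without 3D replicate 2). That of Cyp4f37 turned with quantile normalization (3e-04), and leaving out 1 library moved it from -0.149 to 0.0241 (0.0082 without 2D replicate 2).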

Other observations

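P450 rows outside the name pattern were also measured. Cyp51, the sterol demethylase of cholesterol synthesis, was at 65.6 and 65.7 TPM in the 2D libraries and at 58.1 and 57.3 TPM in the 3D libraries, with no overlap. It fell by 0.18 ± 0.04 on the log2 scale (SE, n = 2 per culture, limma adjusted p = 0.0265). That call was lost without any 1 of the 4 libraries, with limma adjusted p-values from 0.0675 to 0.129. The unprocessed pseudogene Cyp2c52-ps, which lies just before Cyp2c55 on chromosome 19, was at 7.76 and 8.84 TPM in 2D and at 8.59 and 7.30 TPM in 3D (95% interval of the log2 fold change -0.37 to 0.25, limma adjusted p = 0.707). It stood close to the level of Cyp2c55, with which it shares 0.51% of the 50-base stretches of that gene. Cyp4f41-ps, the pseudogene beside Cyp4f13, was at 1.35 and 1.82 TPM in 2D and at 1.11 and 1.22 TPM in 3D (limma adjusted p = 0.224).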
